A study of Danio rerio with 12 samples.

Results

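The transcriptome of the adult male zebrafish brain was described from the 6 wild-type (gr +/+) RNA-Seq libraries of a series of 12. Members were chosen by their genotype label. Of 32520 gene IDs, 20299 had a mean normalised count of at least 10 over these brains, and 14561 of at least 100. The first set was used to describe how counts spread over genes, and the second to describe which genes differed between brains.

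The study asked what the glucocorticoid receptor, a cortisol-activated transcription factor, does in the adult brain. Each library was made from the poly(A) RNA of 1 whole brain of a 22-month-old male, with olfactory bulbs and pituitary left attached. The fish were wild-type siblings from crosses between carriers of the gr s357 allele, genotyped by fin clip and kept apart from the other genotypes under 14 h of light and 10 h of darkness. The brains are named 1, 2, 3, 4, 5 and 7, as in the sample labels, and the other 6 libraries of the series were not compared here.

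The brain of an adult teleost holds neurons, myelinating oligodendrocytes, microglia, vessels, and radial glia that persist into adult life and line the ventricles as stem cells. A dissected brain can also carry parts of organs that lie against it. The pituitary hangs below the hypothalamus, the light-sensitive pineal organ sits on the roof of the forebrain, and the meninges, skull, muscle, skin, eyes and olfactory epithelium surround it. Messenger RNA in such a sample is a sum over all of these cells, so fewer cells of a type and less RNA per cell cannot be told apart.

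Libraries held between 24407683 and 37548901 reads assigned to genes. Between 24609 and 25181 gene IDs had at least 1 read in a library, 22146 had reads in every brain, and 4830 in none. All 15 pairs of libraries differed by more than the sampling noise of their counts, with correlations of log2 counts across genes from 0.9455 to 0.9805, so each was counted as a separate sample. NR3C1, the gene of the receptor itself, was read at a lowest, median and highest normalised count of 4107, 4311 and 4567, with a mean of 4329 ± 199.6 (SD, n = 6) and rank 1279 of all genes. Its level differed little between the brains. The tissue label was checked against markers. The 15 neuronal marker IDs, among them SNAP25 and ELAVL4, took 1.33% ± 0.045 of all counts (SD, n = 6), whereas the 12 lens crystallin and lens channel IDs summed to between 22.5 and 34.1 normalised counts per brain.

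A single ID without a symbol and protein-coding transcripts of the mitochondrial genome headed the order of abundance. A normalised count is a number of reads divided by the library's size factor. It grows with transcript length, so the order below is one of counts and not of molecules. The first rank went to ENSDARG00000080337, which has no symbol in the names used here, at a lowest, median and highest count of 843929, 1134947 and 1370300. It took 3.71% ± 0.558 of all counts (SD, n = 6), with brain 7 lowest and brain 1 highest. MT-CO1, a subunit of cytochrome c oxidase, came second with 639952, 762130 and 1028343. MT-CO2, MT-CO3, MT-ATP6 and MT-CYB, of the same enzyme, of ATP synthase and of complex III, were also among the first 10 genes. Together the 13 protein-coding mitochondrial genes took 7.53% ± 1.4 of counts. Their sum was lowest in brain 2 with 1792755 and highest in brain 1 with 3194982, where each of the mitochondrial genes among the 25 most abundant also had its highest value. The sum had a CV (the standard deviation divided by the mean) of 0.207, and of 0.107 without brain 1.

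Of the genes with a symbol outside the mitochondrial genome, malat1, a long non-coding RNA kept in the nucleus, had the highest mean, with 299664, 385037 and 473829 in the lowest, median and highest brain. Next came mbpa, encoding myelin basic protein, with 185736, 229894 and 250351. The secreted glycoprotein gene epd (ependymin), which in teleosts is made by cells of the meninges and released into the brain fluid, followed with 160563, 173985 and 237115, and was highest in brain 7. The CVs of these 3 genes lay between 0.10 and 0.163. SNAP25 (ENSDARG00000020609), a SNARE protein that drives fusion of synaptic vesicles, was more even, with 125644, 129069 and 136413 counts and a CV of 0.0284. GPM6A (ENSDARG00000055455), a membrane glycoprotein of growing neurites, was close to it, with 88700, 89916 and 95719 and a CV of 0.0298.

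The first 25 also held MT-ND4, MT-ND1, MT-ND5 and MT-ND2, subunits of complex I, with means of 124345, 87352, 80116 and 78884. Other genes of the first 25 were actb2 (β-actin, mean 115842), map1ab (a microtubule-associated protein, 89904), HSP90AB1 (the constitutive cytosolic chaperone that holds steroid receptors ready for ligand, 68499), ALDOC (ENSDARG00000019702, a brain aldolase, 65537), calm3b (calmodulin, 57914), STMN1 (ENSDARG00000033655, a regulator of microtubules, 56658) and CLSTN1 (a cargo adaptor of neuronal transport, 55040). ENSDARG00000082753, at rank 12 with a mean of 123116, has no symbol either. The 10 most abundant genes took 13.0% ± 1.60 of counts and the 100 most abundant 25.2% ± 1.72 (SD, n = 6). The first share was highest in a brain with 16.0% and lowest in one with 11.5%.

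Counts were spread over a long range of levels, and most genes lay in its middle. Among the 20299 genes with a mean of at least 10, the median of the mean was 342.6 normalised counts, with quartiles of 80.8 and 1143 and a central 90% from 16.1 to 5151. There were 5738 genes between 10 and 100, 8992 between 100 and 1000, 5152 between 1000 and 10000, 404 between 10000 and 100000, and 13 at or above 100000. Thus 69.7% of the genes lay between 100 and 10000. The 5738 genes of the lowest class took 0.782% of all counts, whereas the 417 genes at or above 10000 took 40.2%. Few genes were needed for much of the total: 98 genes held 25% of counts, 800 held 50%, 3035 held 75% and 6597 held 90%. Genes under a mean of 10 hardly added to the total, since those at or above it held 99.9%.

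**Figure D1:**
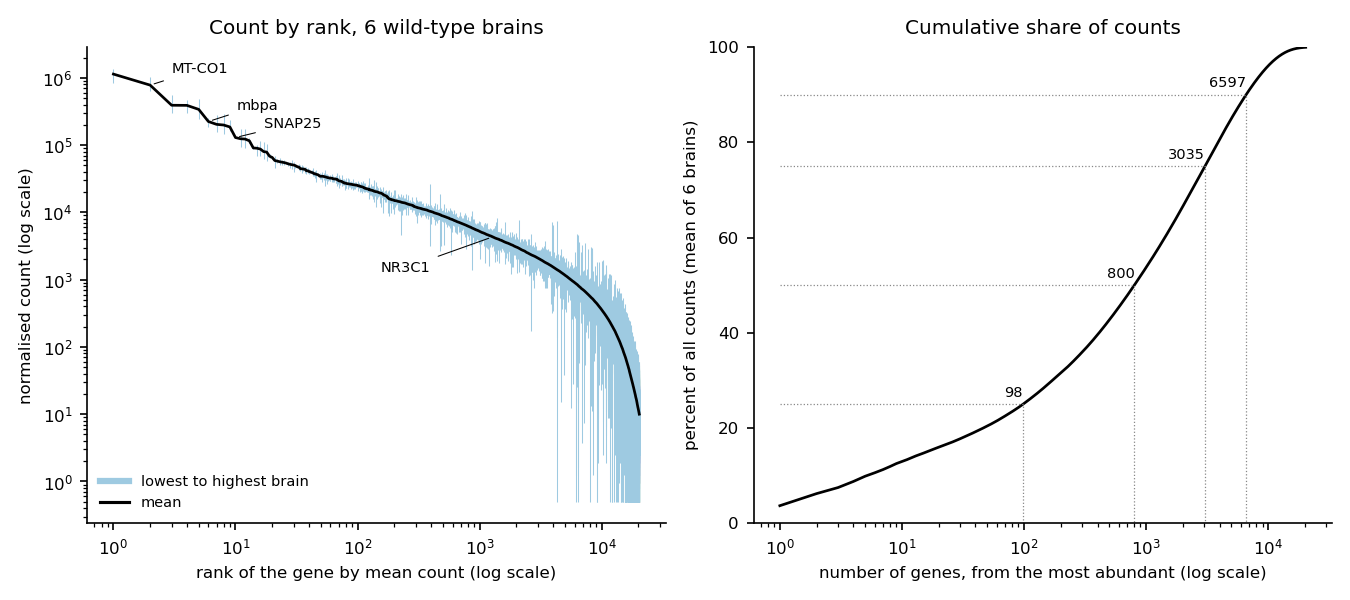
Left, normalised count by rank of the mean, both axes on log scales, with the mean of 6 wild-type brains as a black line and the lowest to highest brain as a blue bar (0 drawn at 0.5). Right, percent of all counts against the number of genes from the most abundant downwards, with 98, 800, 3035 and 6597 genes at 25%, 50%, 75% and 90%. The bars widen to the right, where counts are low.

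Most genes were steady between the brains. Over the 14561 genes with a mean of at least 100, the median CV was 0.112, with quartiles of 0.0749 and 0.170, and 6232 genes (42.8%) had a CV under 0.1. The CV that counting of reads alone would give had a median of 0.0398. The observed CV was 2.86 times the counting CV in the median gene, and 409 genes (2.81%) were at or under it. The spread of the median gene thus exceeded counting error. A CV from 6 libraries can pass the counting CV by chance, and single genes were not tested for this. With 1 library per fish, differences between fish, between dissections and between library preparations cannot be told apart.

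The 10 genes of lowest CV among those with a mean of at least 1000 had CVs up to 0.0156. UBE2K (ENSDARG00000013505), a ubiquitin-conjugating enzyme, had 2628, 2646 and 2677 normalised counts in the lowest, median and highest brain and a CV of 0.00612. RPN1, a subunit of the oligosaccharyltransferase of the endoplasmic reticulum, had 3458, 3478 and 3539 and a CV of 0.00899. For ppp2r5ea, a regulatory subunit of protein phosphatase 2A, the counts were 1616, 1644 and 1663 and the CV 0.00986. All of these values lie under the counting CV of their gene, which was 0.0200, 0.0174 and 0.0254, so 6 libraries cannot rank them. The other genes of the 10 lowest were SYT4 (a synaptotagmin), RRAS2 (a Ras-related GTPase), BTBD2 (ENSDARG00000042091), MARCHF8 (a ubiquitin ligase), CLPX (ENSDARG00000029063, a mitochondrial unfoldase), PAPOLA (a poly(A) polymerase) and SKP1 (a core subunit of SCF ubiquitin ligases).

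A minority of genes varied widely. A CV of at least 0.3 was reached by 924 of the 14561 genes (6.35%), one of at least 0.5 by 260 (1.79%) and one of at least 1 by 68. The share was higher at low levels: 14.7% of genes with a mean between 100 and 300 had a CV of at least 0.3, 5.09% between 300 and 1000, 1.82% between 1000 and 10000, and 0.719% (3 genes) at or above 10000. The 3 genes at or above 10000 were FKBP5, FAT2 and lhb, chosen here after their values were seen. The highest CV was 2.42, for the fast troponin gene TNNI2 (ENSDARG00000013752), with 748 normalised counts in brain 1 and between 0.94 and 2.51 in the other 5. The 200 genes of highest CV were used to look for genes that moved together. The gene at rank 200 had a CV of 0.581 and the next one 0.578.

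**Figure D2:**
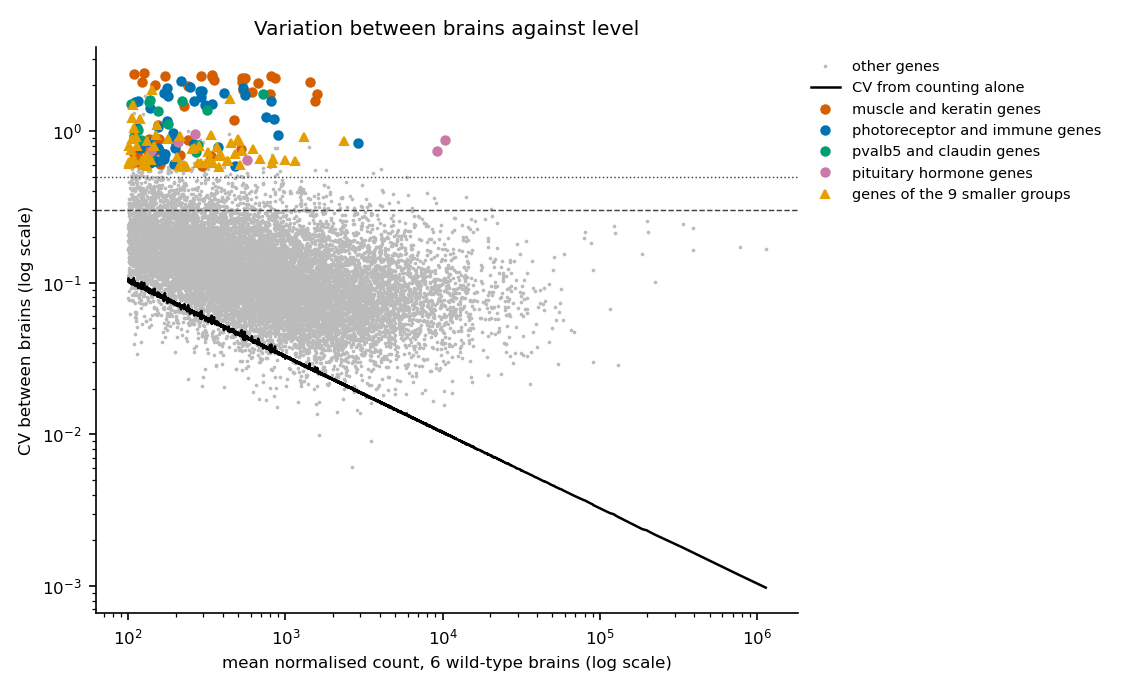
CV between 6 wild-type brains against mean normalised count, both on log scales, for the 14561 genes with a mean of at least 100 (grey points), with the CV that counting alone gives as a black line and CVs of 0.3 and 0.5 as dashed and dotted lines. Coloured points are genes of the co-varying groups described in the text, all among the 200 genes of highest CV.

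Extreme values came mostly from a pair of brains. Among the 200 genes of highest CV, the library farthest from the gene's mean was brain 2 for 72 genes, brain 1 for 64, brain 5 for 32, brain 4 for 20, brain 3 for 7 and brain 7 for 5. Over all genes with a mean of at least 100, brain 2 was farthest for 20.4% and brain 1 for 26.5%. In 59 of the 200 genes, 1 library held over 80% of the squared deviations from the mean, against 139 (0.955%) of all genes of that level.

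Grouping the 200 genes by Pearson correlation of log2(normalised count + 1) over the 6 brains, with average linkage and at least 5 genes per group, put 166 genes into 13 groups and left 34 in none. Each group was checked by leaving out 1 brain and repeating the whole procedure, including the choice of the 200 genes, on the other 5. Groups built this way share their 6 libraries and were formed from the values, so they carry no test. Of all pairs of genes with a mean of at least 100, 0.989% had an r of at least 0.9. Within groups the share was between 14.3% and 70%, as the grouping itself requires.

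The 2 groups with the most genes had 42 each. The first stood high in brain 1. It held 7 genes of the skeletal muscle list, 2 of the glycolysis list and 1 of the skin list, further muscle and keratin genes, and genes of other kinds such as ASCC1 and PABPC4. Creatine kinase ckmb, the muscle enzyme that buffers ATP, had 4740 normalised counts in brain 1 and 25.5 to 141 in the other 5. The parvalbumin gene pvalb4, a calcium buffer of fast muscle fibres, had 4638 in brain 1 and 15.1 to 66.5 elsewhere. Myosin heavy chain gene myhc4 had 1917 there and 12.3 to 31.3 in the others. The muscle actin gene actc1b, with 3492 against 53.8 to 156, and GAPDH, the glycolytic dehydrogenase, with 3631 against 164 to 282, followed the same course. The brain-abundant paralog GAPDHS did not share it, with 41453 in brain 1 and 41615 to 48259 in the others. Keratin genes krt5 and krt91, structural proteins of epidermis, moved with them: krt5 had 6510 in brain 1 and 344 to 901 elsewhere, and krt91 had 7247 against 320 to 738. Also in the group were nme2b.2, a nucleoside diphosphate kinase, with 7499 against 139 to 322, and gnrh3, the gonadotropin-releasing hormone of the terminal nerve and preoptic area, with 251 in brain 1 and 60.4 to 145 in the others. In all 42 genes brain 1 was the farthest library. When brain 1 was left out, no more than 1 of the 42 genes remained in any single group, so the group rests on that library.

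The second group of 42 genes stood high in brain 2 and held photoreceptor and pineal genes together with immune genes. Rod transducin GNAT1 had 1847 normalised counts in brain 2, 424 in brain 5 and 27.6 to 60 elsewhere, and the arrestin gene saga had 1345, 227 and 11.3 to 53.6. Brain 2 was thus highest, brain 5 second and brains 1, 3, 4 and 7 low. The enzymes of melatonin synthesis were in the same group. ASMT, which makes melatonin from N-acetylserotonin, had 870 in brain 2 and 12.6 to 78.1 in the others, and aanat2, the rate-limiting pineal enzyme, had 467 in brain 2, 191 in brain 5 and 48.9 to 80.1 elsewhere. TPH2, a tryptophan hydroxylase, belonged to them with 687 in brain 2 and 131 to 244 in the others. Retinal genes such as RPE65 (ENSDARG00000007480), the isomerase of the visual cycle, also stood high in brain 2, with 1289 against 30 to 172.

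The immune genes of this group were also highest in brain 2. Immunoproteasome subunit PSMB8, which cuts peptides for antigen presentation, had 367 normalised counts in brain 2 and 71.3 to 107 in the others. PSMB9 and psmb13a, of the same complex, had 358 against 67.5 to 118 and 305 against 63.6 to 96.6. Interferon-induced ifi44a1 had 567 against 56 to 165, and lgals9l1, a galectin, had 7771 against 1313 to 2437. Brain 5, second in the photoreceptor genes, was among the lowest in the immunoproteasome genes. Brain 2 was the farthest library for all 42 genes, and without it at most 7 of them stayed in 1 group. Whether the 2 sets of genes are linked in any way other than through brain 2 was not tested.

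A group of 6 genes held 4 of the pituitary list, together with ZNF644 and ENSDARG00000099775. The luteinising hormone subunit gene lhb had 26099, 13620 and 12241 normalised counts in brains 2, 3 and 5, and 3569, 3176 and 3658 in brains 1, 4 and 7. The common glycoprotein hormone subunit CGA (ENSDARG00000040479) had 18881, 12783 and 13663 in the first 3 of these brains and 2674, 3431 and 3932 in the other 3. Brains 2, 3 and 5 were thus high and the rest low in both genes, with no overlap. Prolactin (prl) had 404, 184 and 447 against 83.8, 84.8 and 42.2, in the same split, and a second CGA copy (ENSDARG00000103345) had 260, 247 and 191 against 37.5, 50.9 and 55.2. A zinc finger gene of the group, ZNF644, was different in that brain 1, with 698, stood near the high brains. Leaving out any brain but brain 2 kept 5 or 6 of the 6 genes in 1 group, and leaving out brain 2 kept 3. POMC, the precursor of adrenocorticotropic hormone, had a CV of 0.529, under the cut of the 200 grouped genes, so it could join no group. Its counts were 281, 176 and 386 in brains 2, 3 and 5 and 290, 106 and 88.4 in brains 1, 4 and 7. These ranges overlapped. The growth hormone gene gh1 did not follow the split either, since brain 2, with 20.8, lay under brain 7, with 26.0, and under brain 1, while brain 5 was highest with 230.9. Nor did smtlb, a somatolactin, with 17.6 and 15.7 in brains 3 and 5 and 18.1 and 28.4 in brains 4 and 7. Other list members of low count did follow the split, and are given after their values were seen. Of these, fshb had 77.4, 64.0 and 111.5 in brains 2, 3 and 5 and 28.3 to 60.0 in brains 1, 4 and 7. TSHB had 38.7, 25.1 and 18.6 against 5.68 to 12.4. POU1F1, with a mean of 3.74, and TBX19 split likewise, though TBX19 had 9.44 in brain 2 and 9.05 in brain 4. The split of the tissue at dissection and the hormone output of the gland cannot be told apart in these values.

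**Figure D3:**
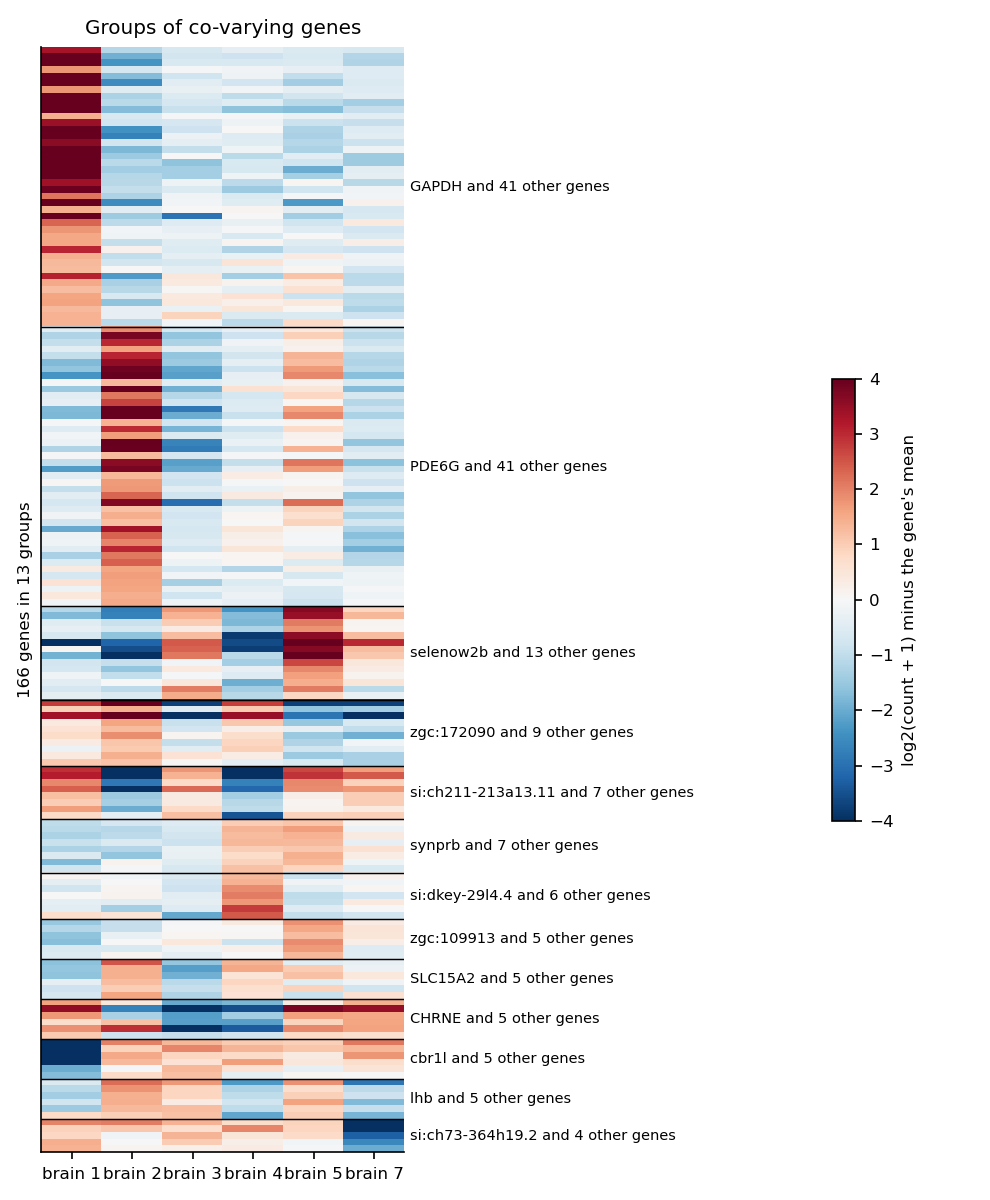
Heat map of the 166 genes of 13 co-varying groups (rows) in 6 wild-type brains (columns), coloured by log2(normalised count + 1) minus the gene's mean from -4 (blue) to 4 (red), each group labelled by its leading gene with a symbol. Brain 1 is red throughout the 42 genes led by GAPDH, and brain 2 throughout the 42 led by PDE6G.

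A group of 14 genes had its highest count in brain 5 in every gene but tnks1bp1, which was highest in brain 3, mostly with middle values in brains 3 and 7. In pvalb5, a parvalbumin, the counts were 3240 in brain 5, 639 in brain 7, 433 in brain 3 and 3.75 to 7.55 in brains 1, 2 and 4. Claudin genes cldn3c and cldne, of tight junctions between epithelial cells, had 548 and 552 in brain 5, 107 and 103 in brain 7, and 108 and 226 in brain 3. Both were at or under 46.3 in the other 3 brains. Also here were otoa, known from the inner ear of mammals, with 1192 in brain 5 and 71.3 to 256 elsewhere, and S100Z, a calcium-binding protein found in olfactory crypt neurons of zebrafish, with 723 against 114 to 251. None of the 14 genes was in a group when brain 5 was left out.

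A further group of 8 genes was high in brains 4 and 5. SP8 (ENSDARG00000056666), a transcription factor of olfactory bulb interneurons and their progenitors in mammals, had 475 and 508 normalised counts in brains 4 and 5, 250 in brain 7 and 81.3 to 118 in brains 1, 2 and 3. A second SP8 copy (ENSDARG00000011870), chosen after its values were seen, had 527 and 852, 387, and 105 to 255. The synaptic vesicle gene synprb had 1378 and 1516 in brains 4 and 5 and 345 to 755 elsewhere. UNC13B, which primes vesicles for release, had 527 and 516 against 111 to 166. Brains 4 and 5 did not overlap with the others in these 4 genes, and 4 of the 8 genes still grouped when brain 1, 4 or 5 was left out.

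The other 8 groups had 5 to 10 genes each, with many IDs that lack a described function. One of 10 genes was high in brain 2, and in most of its genes also in brains 1 and 4. It held mxc, an interferon-induced dynamin-like GTPase, with 255 normalised counts in brain 2, 111 and 183 in brains 1 and 4 and 29.3 to 55.2 in the rest, and the chemokine gene ccl19a.1, with 598 in brain 2, 369 and 302 in brains 1 and 4 and 125 to 197 in the rest. Relaxin gene rln3a, a neuropeptide, had 612 and 574 in brains 2 and 1 and 112 to 286 in the other 4. Without brain 2, no more than 1 of the 10 genes stayed in any group.

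In another of 8 genes, brains 2 and 4 were low. MSH4, a meiotic mismatch repair protein, had 1.89 and 10.2 in brains 2 and 4 and 329 to 517 in the other 4, and cep135, of the centriole, had 331 and 357.5 against 1110 to 2101. Leaving out brain 4 kept 4 of the 8 together and leaving out brain 2 kept 5. A group of 7 genes was high in brain 4, among them the haemoglobin gene HBE1 (ENSDARG00000069734), with 437 against 66.5 to 127, and the integrin gene ITGA10, with 335 against 39.1 to 87.8. None of its genes was in a group without brain 4.

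Brain 5 was high in a group of 6 with sult2st1, a sulphotransferase, at 1262 against 196 to 622, and isg15, the ubiquitin-like protein induced by interferon, at 620 against 170 to 267. A group of 6 was low in brains 1 and 3 against brains 2 and 4, as in SLC15A2, a peptide transporter, with 18.8 and 20.1 in brains 1 and 3 and 347 and 154 in brains 2 and 4. In zgc:152670 of this group brain 5, with 778, lay above brain 4, with 509. Low values in brains 3 and 4, and in some of the genes also in brain 2, marked another 6 genes, such as CHRNE, a subunit of the nicotinic acetylcholine receptor of muscle, with 23.8 and 27.2 against 127 to 300. The last 2 groups were low in 1 brain. OGDHL, a 2-oxoglutarate dehydrogenase, had 12.5 in brain 1 and 695 to 1837 in the others, and gpx1a, a glutathione peroxidase, had 7.30 in brain 7 and 586 to 1404 in the others. None of the genes with sult2st1 stayed in a group without brain 5, none with OGDHL without brain 1, none with gpx1a without brain 7 or brain 4, and none with CHRNE without brain 1 or brain 4. Of the 6 genes grouped with SLC15A2, 2 to 5 stayed together under the omission of any brain.

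Markers of cell types and pathways were taken as 36 lists of genes by name. In all genes with a mean of at least 100, 6.35% had a CV of at least 0.3 and the median CV was 0.112. For neurons, 0 of 14 markers with that mean reached 0.3 and the median CV was 0.0567. The summed count of the neuron list lay between 398365 in brain 7 and 419030 in brain 5, a CV of 0.0215. The vesicle protein gene sypa (synaptophysin) had 27808 to 30542. Calmodulin and other calcium-binding genes (0 of 12, median CV 0.0896, summed CV 0.0344) and heat shock genes (1 of 15, median CV 0.0803, summed CV 0.0231) were also even. Endothelial and mural genes were even in sum (0 of 10, summed CV 0.0528). Their median CV of 0.138 was nevertheless above the 0.112 of all genes. In the heat shock list the exception at that mean was HSPB1, a small heat shock protein, with 675 in brain 2 and 256 to 433 in the others. The sum of that list is mostly HSP90AB1 and HSPA8. Its inducible members of lower count varied widely and were highest in brain 1: hsp70l had 210.2 there and 31.3 to 115 in the others, and hsp70.3 had 148 and 23.8 to 42.1.

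Neurons by transmitter were less even than the neuron list as a whole, although few genes passed 0.3. GAD2, which makes GABA, had 24720, 29801 and 37929 normalised counts in the lowest, median and highest brain, with brain 2 lowest and brain 3 highest. SLC17A6 (ENSDARG00000041150), a vesicular glutamate transporter, had 5809 to 7566. The paralog SLC17A7 (ENSDARG00000016480), used in mammals by cortical and cerebellar neurons, had 1249 in brain 1 and 2919 to 3950 in the others. It was the only glutamatergic marker with that mean and a CV of at least 0.3, of 3. None of the 7 GABAergic and glycinergic markers reached 0.3, and of 6 monoaminergic and cholinergic ones TPH2 alone did.

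Brain 1 was also low in genes of the cerebellum. The granule cell genes ZIC1, NEUROD1 and cbln12 had 9912, 9837 and 3149 normalised counts in brain 1, against 17383 to 23706, 15877 to 21070 and 9102 to 11496 in the other 5. The Purkinje cell genes ALDOC (ENSDARG00000057661) and CA8 had 2297 and 744 there, against 7032 to 10908 and 1531 to 2213. However, pvalb7, another Purkinje cell gene, had a CV of 0.0722 over the 6 brains. Summed, the list had a CV of 0.125, and of 0.0407 without brain 1. The same brain held the muscle and keratin counts and the highest mitochondrial share given above, and their part in this result was not tested.

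**Figure D4:**
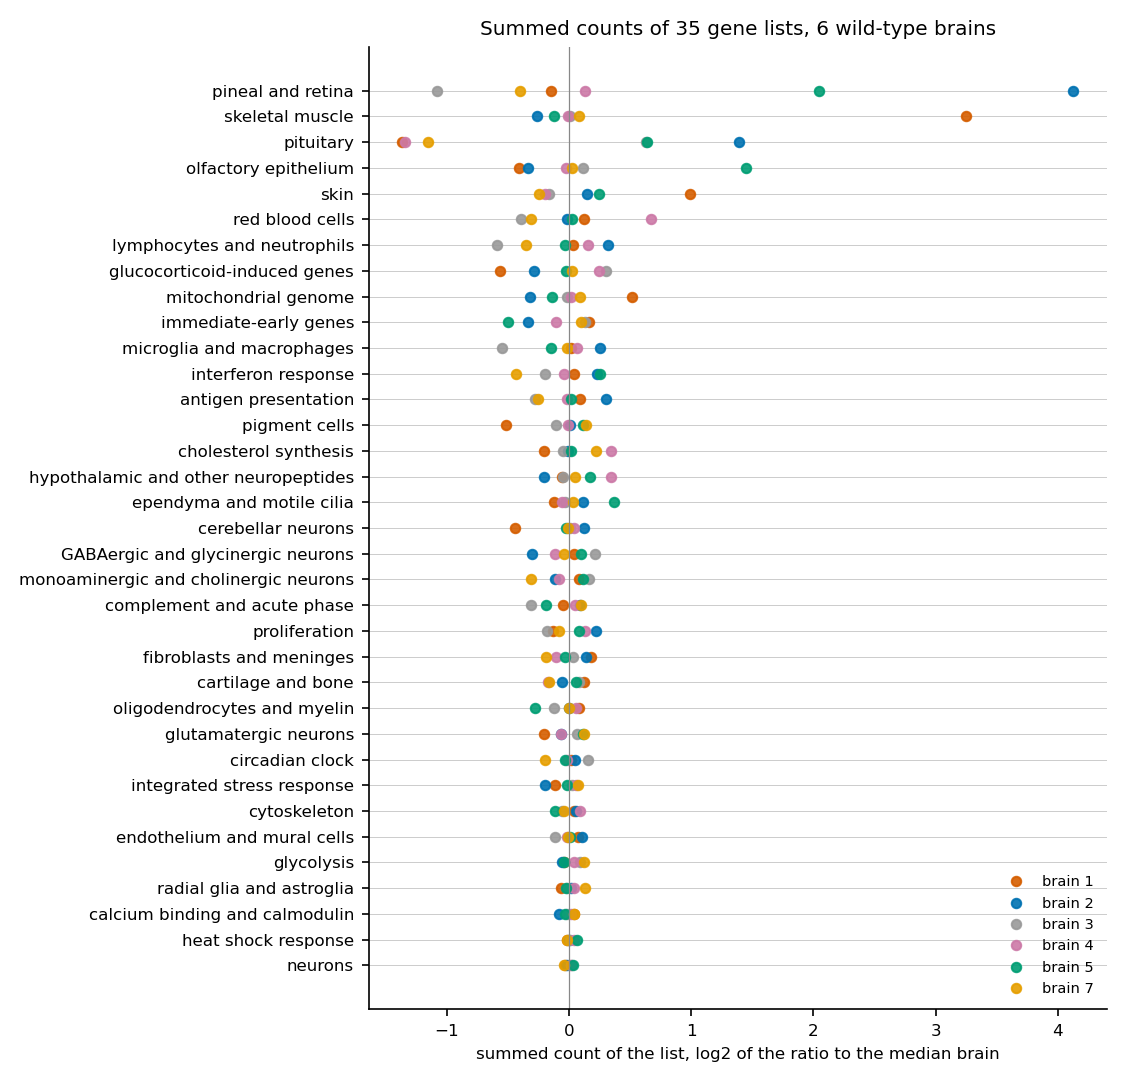
Summed normalised count of 35 gene lists in each of 6 wild-type brains, as log2 of the ratio to the median brain, ordered from the most to the least variable list (lens left out, since its counts are near 0). Pineal and retina in brain 2, skeletal muscle in brain 1, and pineal and retina in brain 5 lie farthest from 0, and the neuron list lies closest to it.

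Glia and myelin were close to even in sum, but less so gene by gene. Of oligodendrocyte genes 1 of 10 reached a CV of 0.3, and of radial glia genes 2 of 13. Their median CVs were 0.159 and 0.137, above the 0.112 of all genes with a mean of at least 100. The oligodendrocyte sum is mostly mbpa, with a mean of 224303 in a mean sum of 288191. The oligodendrocyte list had a summed CV of 0.0891 (0.054 without brain 5), with plp1b, a myelin proteolipid protein, at 18844, 21616 and 24824 in the lowest, median and highest brain, and with OLIG2, the lineage factor, at 815 in brain 4 and 1957 in brain 1. The radial glia list had a summed CV of 0.0489 (0.029 without brain 7). In it, the glutamine synthetase copy GLUL (ENSDARG00000100003) had 9021 to 17931, whereas the other copy (ENSDARG00000099776) had 37397 to 46878. Microglia and macrophage genes were more variable, with 4 of 9 at a CV of at least 0.3, a median CV of 0.299 and a summed CV of 0.175 (0.104 without brain 3). In these genes brain 2 was mostly highest and brain 3 lowest: cd74a, the invariant chain of antigen-presenting cells, had 21691 in brain 2, 9600 in brain 3 and 13629 to 16539 elsewhere, and SPI1, the myeloid transcription factor PU.1, had 591, 163 and 290 to 394. However, apoeb, the apolipoprotein E gene, was lowest in brain 2 with 5777 and highest in brain 7 with 11434, and the chemokine gene ccl34b.1 was also lowest in brain 2.

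Blood and connective tissue genes also differed between brains. Of 6 red blood cell genes, 4 had a CV of at least 0.3, and the summed CV of 0.287 fell to 0.150 without brain 4. The globin gene hbaa1 had 3105 normalised counts in brain 4 and 735 to 1660 in the others, and alas2, the first enzyme of haem synthesis in red cells, had 720 in brain 4 and 244 to 482 in the others. While cahz was also highest in brain 4, SLC4A1 (ENSDARG00000012881) was highest in brain 5, with 168 against 164 in brain 4. Both epb41b and hemgn were highest in brain 1, with 269 and 410 against 210 and 353 in brain 4. Collagen genes col1a1a and COL1A2 were highest in brain 1 (803 and 866) and lowest in brains 4 and 7 (260 and 265 for col1a1a, 379 and 335 for COL1A2). The most abundant gene of that list, DCN (decorin), was lowest in brain 1, with 1671 against 2133 to 2938, and so was foxc1b, with 136 against 153 to 215. The 10 fibroblast and meningeal genes with a mean of at least 100 held 4 with a CV of at least 0.3.

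The 5 lists with a summed CV of at least 0.3 were all of organs around the brain: pineal and retina, skeletal muscle, pituitary, olfactory epithelium and skin. The skeletal muscle list summed to 23897 normalised counts in brain 1 and to 2090 to 2662 in the other 5, with 9 of 9 genes of that mean at a CV of at least 0.3, and its summed CV of 1.46 fell to 0.0918 without brain 1. For the pineal and retina list the sum was 10267 in brain 2, 2422 in brain 5 and 277 to 645 in the rest, with 8 of 8 genes at 0.3. Its summed CV was 1.61, and 1.02 without brain 2. The olfactory epithelium list summed to 1892 in brain 5 and to 523 to 752 in the rest (CV 0.609, and 0.157 without brain 5). Skin genes summed to 14070 in brain 1 and to 5992 to 8391 elsewhere (CV 0.376, and 0.157 without brain 1). The rise of this sum in brain 1 lay mainly in krt5, with 6510 there and 344 to 901 elsewhere. The skin genes did not rise as a set. While krt4 was also highest in brain 1, icn, cldne and epcam were highest in brain 5. Their counts in brain 5 were 1408, 552 and 197, against 1096, 46.3 and 61.3 in brain 1. For krt8 brain 2 was highest, with 6032 against 5668 in brain 1. The pituitary list (5 of 5 genes at 0.3) kept a summed CV of 0.704 to 0.920 whichever brain was left out. By contrast lyz (lysozyme of neutrophils), CRYAA (a lens crystallin), bglap (osteocalcin of bone) and smtla (a pituitary hormone of the intermediate lobe) were at 0 reads in all 6 brains.

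Response genes took middle places. The glucocorticoid-induced list had 4 of 10 genes with a CV of at least 0.3, a median CV of 0.196 and a summed CV of 0.215. FKBP5, a co-chaperone that lowers the hormone affinity of the glucocorticoid receptor, had 12171 normalised counts in brain 1, 15938 in brain 2 and 18322 to 28408 in the other 4. KLF9, a zinc finger transcription factor, had 1828 and 2678 in the same 2 brains and 4294 to 6218 in the others, so both genes were lowest in brains 1 and 2. ZBTB16, a further zinc finger factor, was lowest in brain 2 with 2395 and highest in brain 7 with 7100. In contrast tsc22d3, the leucine zipper gene known as GILZ, had 5416 to 7439 and a CV of 0.125. The sums of this list ran from 32491 in brain 1 and 39399 in brain 2 to 59232 in brain 3.

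Activity and clock genes differed in how even they were. Of 16 immediate-early genes, which neurons induce within minutes of activity, 5 had a CV of at least 0.3. NPAS4 (ENSDARG00000055752) had 8459, 11552 and 14671 normalised counts in the lowest, median and highest brain, and egr1 had 7062, 8126 and 12030. In NPAS4 brain 3 was highest and in egr1 brain 1, whereas both were lowest in brain 5. The summed count of the list was also lowest in brain 5, with 31088 against 34885 to 49191 in the others. Some members had another lowest brain, such as FOSB with 511 in brain 4 and egr4 with 1724 in brain 2. NR4A1, an orphan nuclear receptor, had 1885 in brain 1 and 664 to 1155 in the others. Of 27 clock genes 1 had a CV of at least 0.3 (3.70%, against 6.35% of all genes). Their median CV of 0.151 was under the 0.255 of the immediate-early genes. It was nevertheless above the 0.112 of all genes with a mean of at least 100, so the clock genes were not more even than genes at large. The clock gene past 0.3 was npas2, one of the clock activators, with 248 and 217 in brains 1 and 2 and 604 to 720 in brains 3, 4, 5 and 7. NR1D1, a repressor of the clock loop, had the reverse course in part, with 3457 to 3666 in brains 1, 2 and 3 and 1793 to 2648 in brains 4, 5 and 7. Light-driven and rhythmic genes change with the hour, and tissues were taken within a window of 2 h on the day of culling according to the methods. No time is given for a single brain, so the part of the hour was not tested.

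Immune and metabolic lists were mixed. Interferon response genes had 5 of 8 and antigen presentation genes 6 of 11 with a CV of at least 0.3. The abundant b2ml, a light chain of class I molecules, was steadier, with 20809, 24262 and 28064 normalised counts in the lowest, median and highest brain. Cholesterol synthesis genes had 3 of 16 at 0.3. Squalene epoxidase SQLE (ENSDARG00000079946) had 386 in brain 4, 77.6 in brain 1 and 184 to 229 elsewhere, and insig1, a sterol sensor, had 1802 in brain 1, 3473 in brain 4 and 2199 to 3306 elsewhere. Glycolysis genes had 3 of 17 at 0.3, and 2 of these, GAPDH and ALDOA (ENSDARG00000034470), were in the group of 42 genes high in brain 1. Asparagine synthetase ASNS was the 1 of 12 integrated stress response genes past 0.3, with 275 and 278 in brains 1 and 2 and 422 to 805 in the others. The lists not named so far had few genes with a mean of at least 100 or a low spread. Of lymphocyte and neutrophil genes 3 of 4 reached 0.3 (summed CV 0.221), of complement and acute phase genes 1 of 3 (0.112), of pigment cell genes 1 of 2 (0.150, and 0.0680 without brain 1), of ependymal and cilia genes 0 of 5 (0.127, and 0.0627 without brain 5), of cartilage and bone genes 0 of 1 (0.0893), and of cytoskeletal genes 0 of 14 (0.0536).

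Among neuropeptides 1 of 12 genes, gnrh3, reached 0.3. Oxytocin-like oxt had 4743, 6257 and 9845 normalised counts in the lowest, median and highest brain, with brain 4 highest. NPY, which drives feeding, had 2188, 2787 and 3135, and penka, an enkephalin precursor, had 1969, 2261 and 2521. Proliferation genes, which in this tissue mark dividing progenitors, were even in their most abundant member PCNA (1245, 1525 and 1573), and 1 of 10, TOP2A, passed 0.3 with 227 in brain 2 and 95.4 to 182 in the others.

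Whether genes of the same cell type or response rose and fell together was also asked of 20 pairs fixed by name, of which 12 could be used, with a two-sided exact permutation test over the 720 pairings of 6 brains. The smallest p this design allows is 0.00278, and p-values were adjusted with the Benjamini-Hochberg method over 16 relations. For hbaa1 and alas2, Pearson's r of log2 counts was 0.98 (exact permutation p = 0.00417, adjusted p = 0.0296), and r was 0.995 without the 2 brains farthest from the median of hbaa1. Their Spearman's ρ of 0.943 had an exact permutation p of 0.0167, adjusted to 0.133. For the collagens col1a1a and COL1A2, r was 0.981 (exact permutation p = 0.00556, adjusted p = 0.0296) and 0.989 without the 2 farthest brains, with a ρ of 0.886 (exact permutation p = 0.0333, adjusted p = 0.133). For MT-CO1 and MT-ND4, r was 0.975 (exact permutation p = 0.00278, adjusted p = 0.0296) and 0.747 without the 2 farthest brains, with a ρ of 0.943 (exact permutation p = 0.0167, adjusted p = 0.133). These 3 pairs passed an adjusted p of 0.05 by r, and no pair passed by ρ.

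The other 9 pairs did not pass. The 4 nearest had an adjusted exact permutation p of 0.192 each by r: mbpa and plp1b (r = 0.77, ρ = 0.829), POMC and prl (r = 0.783, ρ = 0.657), FKBP5 and tsc22d3 (r = 0.747, ρ = 0.6), and isg15 and mxa (r = 0.879, ρ = 0.371). Unadjusted, their exact permutation p-values by r were 0.0722, 0.0847, 0.0917 and 0.0958, and by ρ 0.0583, 0.175, 0.242 and 0.497. The last of them rested on the extreme brains, since r was -0.476 without the 2 farthest. Without them r was 0.89 for the myelin pair, 0.372 for POMC and prl and 0.719 for FKBP5 and tsc22d3. In the remaining 5 pairs (gh1 and prl, FOS and egr1, hsp70l and HSP90AA1, PCNA and MCM5, avp and oxt) r was between -0.0846 and 0.545 and ρ between -0.429 and 0.771, with adjusted exact permutation p-values of at least 0.427 by r and 0.274 by ρ. Without the 2 farthest brains, r was -0.139 for gh1 and prl, 0.508 for FOS and egr1, -0.369 for hsp70l and HSP90AA1, 0.802 for PCNA and MCM5 and -0.182 for avp and oxt, so several of these values rest on the extreme brains. With 6 brains these values do not show that the genes of a pair move apart.

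Principal components of the 500 most variable genes put the same brains at the ends. The first held 35.7% of the variance and ran from -31.8 in brain 5 to 51.9 in brain 2. The second held 29.3%, with brain 1 at 54.7 and the others at or below -0.513. Its score had an r of 0.967 with the mitochondrial share of counts (exact permutation p = 0.00972, adjusted p = 0.0389) and a ρ of 0.886 (exact permutation p = 0.0333, adjusted p = 0.133). Without the 2 brains farthest from the median, r was 0.868. That relation was lost when all genes with a mean of at least 10 were used (r = 0.732, adjusted exact permutation p = 0.269). The first component had an r of -0.0529 and a ρ of 0.2 with reads per library, and an r of -0.236 and a ρ of -0.0286 with the mitochondrial share. The second had an r of -0.402 and a ρ of -0.314 with reads. Without the 2 farthest brains these r values were -0.375, 0.977 and 0.0815, so that of the first component with the mitochondrial share changed sign over the other 4 brains. For these 3 relations the adjusted exact permutation p-values by r were 0.97, 0.798 and 0.526, and by ρ 0.761, 1 and 0.644. The sources used here name no extraction or sequencing batch for these brains, so none could be compared.

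Some genes were well read in part of the brains and nearly unread in the rest. After the values were seen, these were collected as genes with a mean of at least 100, at most 5 reads in at least 1 brain and at least 100 reads in at least 1 other. There were 34 of them (0.234% of genes of that mean), 31 with a symbol. In 22 the low brain was a single one, in 16 no brain had a middle value, and 18 belonged to a co-varying group. The Nod-like receptor gene nlrc11 had 0 reads in brains 2 and 3 and 1908 to 2377 normalised counts in the others. Its neighbour in the gene tables, si:ch211-181d7.2, had 5.67 and 1.25 in the same 2 brains and 1246 to 1350 in the rest. The class I histocompatibility gene mhc1zka had 0 in brain 1 and 179 to 330 in the others, and zgc:171679 had 0 in brain 2 and 587 to 1553 in the others. The step was thus all or nothing in these genes.

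A paralog pair of fumarase, an enzyme of the citric acid cycle, ran in opposite ways. FH (ENSDARG00000109774) had 1.25 normalised counts in brain 1 and 542 to 681 in the others. FH (ENSDARG00000075132) had 1808 in brain 1 and 878 to 1180 in the others. Reads of copies that are near-identical can be assigned to either one or dropped, and the level of each copy is then uncertain. How alike the FH copies are was not tested. Nor was it tested for the troponin copies, the histocompatibility genes or the Nod-like receptor family, so the same caution holds for them. KCNK5 (ENSDARG00000023587), a potassium channel, was low in 2 brains, with 2.51 and 10.2 in brains 3 and 4 and 338 to 855 in the rest. Of the 34 genes, 6 (17.6%) lay within 5 rows of another of them in the tables, against 0.675% of the other genes of that mean. The 6 did not all share their high brains. Among them, pvalb1 was high in brain 1 alone, with 635.5, and pvalb5 in brains 3, 5 and 7, with 3.75 in brain 1. Of the 32520 gene IDs, 9914 had a chromosome in RefSeq by a unique symbol. Among these, 98.6% of successive IDs were on the same one, so table order followed the chromosomes there. The other IDs were not placed, and distances between genes were not used. What sets these steps was not tested, and the libraries are of 1 genotype at the gr locus only.

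**Figure D5:**
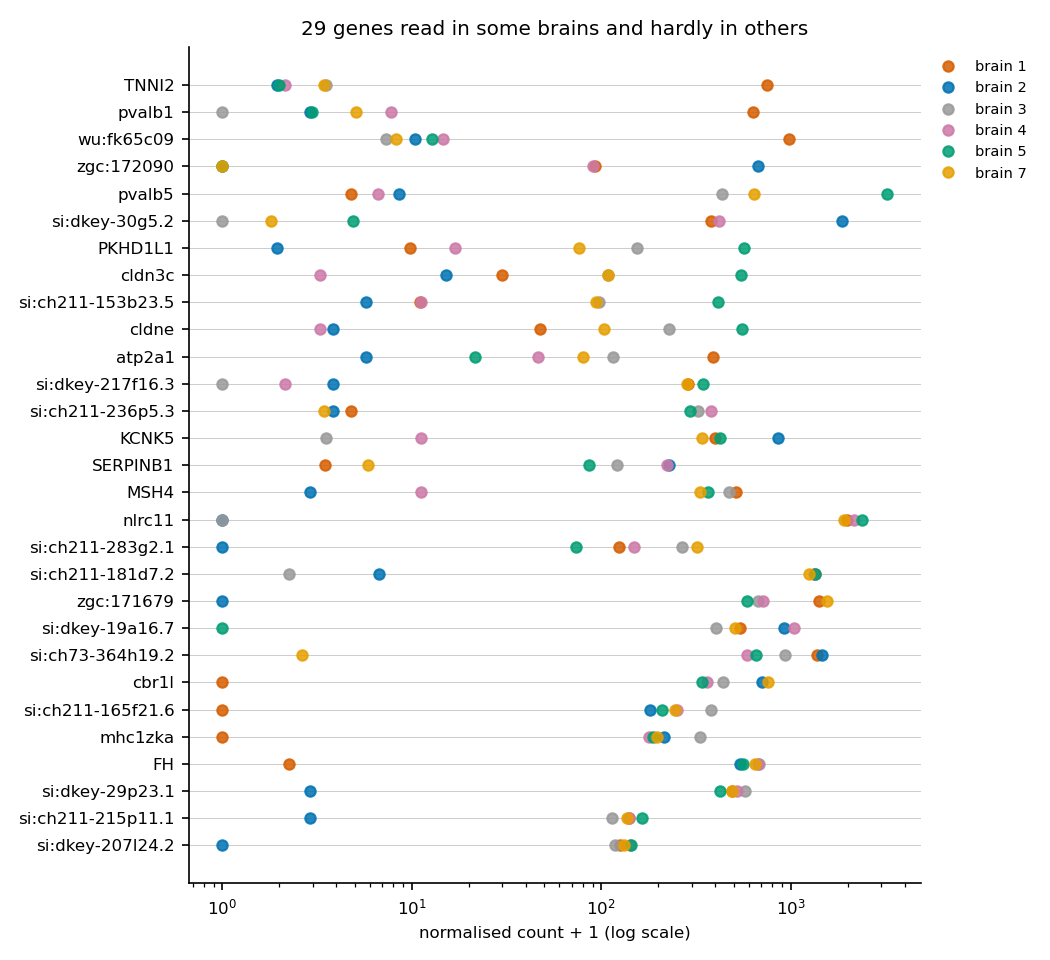
Normalised count + 1 on a log scale in each of 6 wild-type brains for 29 of the 31 genes with a symbol that had at most 5 reads in 1 brain or more and at least 100 in another, chosen after the values were seen. In genes such as nlrc11, mhc1zka and cbr1l the brains fall into a high set and a set at or near 0.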

How the data were processed

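RNA-Seq of 6 single wild-type brains was analysed, 1 library per fish. The authors trimmed paired-end reads with Trimmomatic (version 3.9 in the submitters' processing notes), removed ribosomal reads with SortmeRNA, aligned with STAR to GRCz11 and counted reads per gene, and the deposited signal is that count divided by a DESeq2 size factor set over all 12 libraries. Nothing read here states which strand column of STAR was taken, so reads of genes that overlap on opposite strands cannot be told apart. Dividing by the value of 1 read gave whole reads for 100% of values within 0.01 read. Symbols were found for 29201 of 32520 gene IDs, many of them human symbols of the zebrafish gene, and 6136 IDs share theirs, so such genes carry their ID.

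CVs used the SD over 6 brains with the deposited normalised counts. Named genes were NR3C1, the 25 of highest mean, the 25 of highest CV, the 10 of lowest CV with a mean of at least 1000, up to 6 per group, the paired genes, and for each list up to 5 by mean and 3 by CV. A few more are given as examples, and these (such as krt91, RPE65, ITGA10 and the genes nearly unread in some brains) were chosen after their values were seen. Of 446 list symbols 414 matched an ID, and 8 of 20 pairs were left out for want of a single match with a mean of at least 10. The members and lists were chosen with earlier results of these data known. That the fish were siblings comes from the paper's methods, and nothing read here says more of how they are related. Each p-value is the share of the 720 pairings of these 6 brains with an association at least as strong as the one seen. No gene coordinates or lengths of the build were used. Python 3.11.15, numpy 2.4.6, pandas 2.3.3, scipy 1.17.1 and matplotlib 3.10.9 were used, and the steps were tested on simulated data. Alternatives were other scalings, floors, spreads, numbers of genes, pseudocounts and leaving out each brain. A few genes are not reported here.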

Additional observations from a re-analysis of the deposited data

Results flagged for a closer look

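In 31 of 87 sets of 6 values, 1 brain lay apart, with a gap to its nearest neighbour that, as a share of the whole range, passed Dixon's 95% critical value for 6 samples. Chance flags about 1 in 20 such sets, and 24 of these sets were genes of the 25 of highest CV, which had been chosen for their spread.

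Brain 1 was the high one for genes of the group led by GAPDH, most of them muscle genes, where the gap took nearly all of the range: 0.9979 for TNNI2 (ENSDARG00000013752), 0.9925 for wu:fk65c09, 0.9916 for myhz1.1l, 0.99 for myhc4, 0.9893 for pvalb1, 0.9889 for pvalb4, 0.9886 for pvalb3, 0.9868 for TNNT3 (ENSDARG00000068457), 0.9811 for MYL11 (ENSDARG00000053254), 0.9791 for actn3b, 0.9754 for ckmb, 0.9751 for nme2b.2, 0.9748 for atp2a1l, 0.9745 for TTN (ENSDARG00000028213), 0.9713 for ckma, 0.9702 for actc1b, 0.9688 for lgals4 and 0.9625 for TNNC2. The summed skeletal muscle list had 0.9737 and the skin list 0.703. Brain 1 was also high for 2 of the 25 most abundant genes, MT-CO3 (0.6252) and MT-ND5 (0.6409), and low for the summed list of cerebellar neurons (0.7008).

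Brain 2 was the high one for photoreceptor and pineal genes, with 0.9236 for ASMT, 0.8814 for rbp3, 0.862 for rbp4l, 0.8523 for ARR3 (ENSDARG00000056511) and 0.8382 for saga, and with 0.7853 for the summed pineal and retina list. It was also high for zgc:172090, with 0.8632. Brain 5 was high for the summed olfactory epithelium list, with 0.8329. The cause of these gaps was not tested.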

How the results depend on the processing

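Of 106 values that answer a question of the report under another setting, 94 kept their side or moved by less than the margin set for them, and none changed sign. Those that moved follow. Leaving out mitochondrial transcripts lowered the share of the 10 most abundant genes to 9.02%, from 13.0%. The number of genes with a CV of at least 0.3 (924) was 1578 with a floor of a mean of 50 and 212 with a floor of 500. For a CV of at least 0.5 (260 genes) it was 470 and 55 with these floors, 171 with a CV built from the median absolute deviation, and 94 without the genes of the groups, an alternative chosen after seeing the data. The number of groups was 4 from 100 genes and 22 from 400 genes, against 13. The r of the second component with the mitochondrial share was 0.732 (adjusted exact permutation p = 0.269) over all genes with a mean of at least 10 and 0.454 (adjusted exact permutation p = 0.522) with a pseudocount of 5. Of the 5 lists with a summed CV of at least 0.3, 2 kept it without the library of their highest level, also chosen after seeing the data. The cause of these moves was not tested, other than the smaller or larger sets of genes that the floors themselves make.

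Leaving out each brain in turn gave a share of the 10 most abundant genes of 12.4% to 13.3%, 788 to 820 genes for 50% of counts, a median CV of 0.102 to 0.114, 760 to 1065 genes with a CV of at least 0.3, 217 to 294 with one of at least 0.5, 9 to 13 groups and 4 to 6 lists with a summed CV of at least 0.3. Of 625 further values (single lists, groups and pairs), 553 stayed and 72 moved. No paired analysis was possible because a single group of brains was described. Levels per coding length were not run, since no lengths of this build were used. Genes near a mean of 100 have a counting CV near 0.1, so smaller differences between brains were not detectable there.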
